A study of Mus musculus with 6 samples.

Results

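The small leucine-rich proteoglycans described here are 8 genes: Dcn, Bgn, Lum, Fmod, Ogn, Prelp, Aspn and Podn. They were chosen by name, with earlier results of these data known, and all 8 were among the 23154 gene IDs counted. Their transcripts were measured by RNA-seq in C2C12 cells, an established line of mouse myoblasts, which are muscle precursor cells. One stable C2C12 line carried pINDUCER20b-HA-NUR77, from which doxycycline induces HA-tagged NUR77, a nuclear receptor that is the product of Nr4a1. The control line carried pINDUCER20b-GFP. Both lines received doxycycline at 1 µg/mL for 18 hours, starting 24 hours after seeding, and each was sampled in 3 libraries from separate 10-cm dishes. Each construct is represented by 1 stable line, so a difference between the lines and an effect of the construct cannot be told apart. They give no uninduced cells.

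Small leucine-rich proteoglycans are secreted proteins of the extracellular matrix, built from a curved stack of leucine-rich repeats. Many bind collagen and help set the width and spacing of its fibrils, and several also bind growth factors of the TGF-beta family or cell-surface receptors. By sequence they fall into classes. Decorin (Dcn), biglycan (Bgn) and asporin (Aspn) form class I, lumican (Lum), fibromodulin (Fmod) and PRELP (Prelp) belong to class II, osteoglycin (Ogn) to class III and podocan (Podn) to class V. Decorin and biglycan carry chondroitin or dermatan sulfate chains, and lumican and fibromodulin keratan sulfate. In muscle, these proteins lie in the connective tissue around the fibres, and decorin and biglycan are also made by cultured myoblasts.

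The promoters of the 3 members that fell, Bgn, Prelp and Ogn, are shown because these are the members whose transcripts changed. Each run is the 250 bases before the RefSeq transcription start (build GRCm38.p6), read 5′ to 3′ on the gene's strand. They lie at chrX:73483351-73483600 (plus strand), chr1:133921402-133921651 (minus strand) and chr13:49607765-49608014 (plus strand). Capitals mark matches on either strand to a nuclear receptor half-site (AGGTCA), the TATA box (TATAAA), the GC box (GGGCGG) or an E-box (CAGCTG), which can overlap.
Bgn: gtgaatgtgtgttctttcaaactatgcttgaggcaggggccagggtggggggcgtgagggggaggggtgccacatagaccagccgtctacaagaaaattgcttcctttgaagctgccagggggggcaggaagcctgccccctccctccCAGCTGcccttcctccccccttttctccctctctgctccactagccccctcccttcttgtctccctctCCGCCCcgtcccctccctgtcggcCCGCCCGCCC
Prelp: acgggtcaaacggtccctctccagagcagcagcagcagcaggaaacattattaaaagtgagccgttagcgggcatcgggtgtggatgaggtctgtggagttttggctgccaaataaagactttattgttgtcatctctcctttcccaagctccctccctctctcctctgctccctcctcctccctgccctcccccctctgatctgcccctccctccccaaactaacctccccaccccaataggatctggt
Ogn: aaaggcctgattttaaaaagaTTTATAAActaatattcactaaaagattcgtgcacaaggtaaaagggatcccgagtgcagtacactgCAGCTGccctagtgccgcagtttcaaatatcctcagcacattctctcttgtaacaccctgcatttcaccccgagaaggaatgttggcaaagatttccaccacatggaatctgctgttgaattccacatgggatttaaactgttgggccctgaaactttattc
The monomer response element of NUR77, AAAGGTCA, was searched on both strands of the 300-base windows from 250 bases before to 50 after the start. It was in none of the 7 windows that RefSeq's table held for 6 members (Bgn, Aspn, Fmod, Prelp, Ogn and, with 2 windows, Podn), and it was in 1.51% of all 32851 windows. Its core AGGTCA, a half-site shared by many nuclear receptors, was in 1 of the 7, at Podn, against 16.3% of all. The GC box GGGCGG was in the Bgn window on the minus strand, at 34, 10 and 6 bases before the start, and in 1 Podn window, against 35.7% of all windows. The E-box CAGCTG, a sequence bound by myogenic factors, was in the Bgn window (102 bases before the start), the Ogn window (162 bases before) and 1 Podn window, against 16.3% of all. TATAAA was far upstream in the Ogn window, 229 and 227 bases before the start in 2 overlapping matches, and also in the Aspn window, against 13.6% of all. The Prelp window held none of the 5 motifs. The GC content of these 250 bases was 64.4% for Bgn, 55.6% for Prelp and 42.0% for Ogn, against a median of 52.4% over all windows.

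Totals ran from 13906096 to 22821446 counts per library, and 12509 genes passed the filter on low counts and were tested. Nr4a1 itself stood at 22.5 ± 3.03 CPM, counts scaled to a common library size, in HA-NUR77 and 20.4 ± 7.43 in GFP (SD, n = 3; edgeR adjusted p = 0.698), and since the sources used here do not give the species of the insert, this transcript does not check the labels. All 6 myoblast markers searched were detected, with summed levels of 5696 to 6611 CPM in HA-NUR77 and 3986 to 5368 in GFP, and 1 of the 6 was called, Cdh15, which was higher (3 higher by DESeq2, 4 higher and 1 lower with the replicate number as a block, 4 higher without GFP replicate 3). Of 6 genes of muscle differentiation, 1 rose, Myh3, and the summed level was 11935 to 14495 against 7534 to 11199 CPM (2 higher by DESeq2, 4 with the block or with GFP replicate 3 left out; 0 when replicate 2 or 3 of HA-NUR77 or replicate 1 of GFP was left out). The most abundant of these 2 lists, Des (3298 ± 381 against 2500 ± 429 CPM; SD, n = 3) and Acta1 (5383 ± 487 against 3818 ± 801 CPM), did not pass (edgeR adjusted p = 0.0872 and 0.0583). Both passed with the block (0.000454 and 0.000179), by DESeq2 (DESeq2 adjusted p = 0.0317 and 0.00963) and without GFP replicate 3 (0.048 and 0.0151). Acta1, but not Des, also passed with library totals (edgeR adjusted p = 0.0492), upper-quartile factors (0.0489) and no filter on low counts (0.0299). The 6 fibroblast and mesenchymal progenitor markers summed to 318 to 356 against 167 to 215 CPM. Most of this sum was Ly6a, at 286 ± 14.1 CPM in HA-NUR77 and 123 ± 23.3 in GFP (SD, n = 3). Ly6a and Cd34 rose, while Pdgfra (12.7 against 24.8 CPM) and Pi16 (19.4 against 28.8 CPM) fell, so the sum does not describe the list. Thy1 had no read in any library. The rise of Cd34 did not pass when replicate 2 or 3 of HA-NUR77 or replicate 1 or 3 of GFP was left out. The 4 tendon markers summed to 252 to 661 CPM in HA-NUR77 and 558 to 1092 in GFP, with 0 of 2 tested called (with the block 1 lower, Tnc, edgeR adjusted p = 0.00409). The 5 cartilage markers summed to 63.3 to 65.7 against 51.2 to 53.0 CPM and the 5 bone markers to 31.5 to 35.2 against 34.8 to 46.3 CPM. Nearly all of each sum was 1 gene, Sox9 of cartilage (means 64.1 against 52.3 CPM) and Runx2 of bone (33.0 against 40.6 CPM). The 1 bone marker tested, Runx2, did not pass (log2 fold change −0.30, edgeR adjusted p = 0.0888) but was lower with the block (0.00632) and without GFP replicate 3 (0.022). The 5 macrophage markers summed to at most 3.46 CPM, the 4 endothelial markers to at most 1.3 and the 4 fat markers to at most 5.46. Sox9 of cartilage, Csf1r of macrophages and Pparg of fat were called higher, and each of these calls was lost without HA-NUR77 replicate 1 (those of Csf1r and Pparg also without other libraries). The cartilage genes Acan and Matn1, the bone gene Ibsp and the fat genes Adipoq and Plin1 had no read. Calls in the marker lists are to be read against the shares of all genes tested. These were 12.4% higher and 13.2% lower by edgeR, 12.9% higher by DESeq2, and 23.5% higher and 24.6% lower with the block. Without GFP replicate 3, 11.7% were higher, and without another library 5.09% to 9.96%. The part of these marker genes in the results below was not tested. In RNA from whole dishes, fewer cells that express a gene and less RNA per cell cannot be told apart.

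Of the 8 members, 3 fell, 3 did not pass the test and 2, Lum and Podn, were below the filter on low counts. Those that fell were Bgn, Prelp and Ogn, by 2.06-fold, 3.36-fold and 2.66-fold. No member rose: 0 were higher by edgeR, DESeq2 or limma-voom, and 0 were higher at an unadjusted p under 0.05 in edgeR. DESeq2 and limma-voom also called 3 members lower, the same genes, where they called 15.0% and 13.4% of all genes lower and 12.9% and 12.5% higher. The test was edgeR's quasi-likelihood test with a threshold of 0.05 on Benjamini-Hochberg adjusted p over all genes, by which 13.2% of all genes tested were lower, 12.4% higher and 25.6% called in either direction. The median log2 fold change of the 6 members tested was −0.83, against 0.01 over all genes tested. The libraries of the groups did not overlap, with HA-NUR77 below GFP, for 4 members (Bgn, Prelp, Ogn and Fmod), as for 22.5% of all genes; 23.0% did not overlap the other way and 45.6% either way. With the replicate number as a block, 4 members were lower, Fmod being the addition, where 24.6% of all genes were lower, 23.5% higher and 48.1% either. Leaving out HA-NUR77 replicates 1, 2 and 3 and then GFP replicates 1, 2 and 3 gave 7.16%, 11.3%, 9.83%, 6.74%, 9.8% and 12.3% of all genes lower and 5.33%, 9.96%, 8.21%, 5.09%, 7.27% and 11.7% higher, against 3 members lower each time, or 4 without GFP replicate 3.

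**Figure D1:**
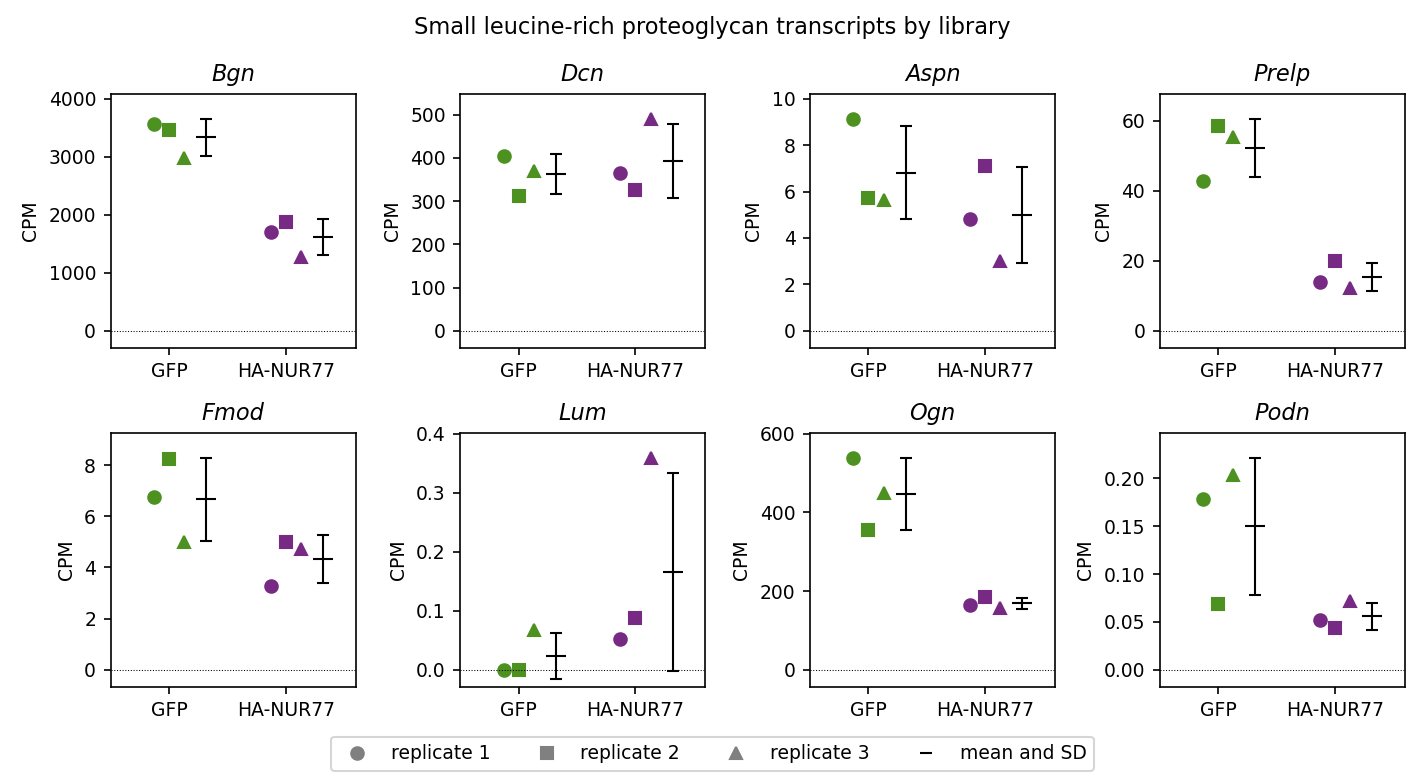
Level of each of the 8 members in CPM (y axis, linear, a separate scale per gene, dotted line at 0) in the 3 GFP and 3 HA-NUR77 libraries (x axis), with the replicate number as symbol and the mean ± SD beside the points. Bgn, Prelp and Ogn lie lower in every HA-NUR77 library than in any GFP library, the Dcn and Aspn points overlap, and Lum and Podn rest on 9 and 10 reads in all.

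Per length of exon, biglycan was the most abundant member in both groups. Expressed as CPM per kilobase of exon (RPKM), Bgn stood at 547 ± 51.8 in GFP, followed by Ogn at 174 ± 35.5, Dcn at 61.9 ± 7.97 and Prelp at 14.4 ± 2.28 (SD, n = 3). Aspn at 2.90 ± 0.853 and Fmod at 2.02 ± 0.490 RPKM came next, and their ranges overlapped, as did those of Podn and Lum, at 0.0351 and 0.00921 RPKM. In HA-NUR77 the order was Bgn (265 ± 50.7), Dcn (67.3 ± 14.8), Ogn (65.5 ± 5.41), Prelp (4.25 ± 1.13), Aspn (2.12 ± 0.874) and Fmod (1.31 ± 0.282), and the ranges of Dcn and Ogn overlapped, as did those of Aspn and Fmod. The order and these overlaps were the same with the length of the longest transcript in place of all exons. The summed level of the members was 882, 780.1 and 746 RPKM in GFP replicates 1, 2 and 3 and 411, 445 and 360.5 in those of HA-NUR77, or 803 ± 70.7 against 406 ± 42.7. With the longest transcript as length, which shortens Bgn from 6099 to 2666 bases, the sums were 1522 in GFP and 764 in HA-NUR77. Bgn made up 68.2% ± 3.96 of the sum in GFP and 64.9% ± 6.03 in HA-NUR77, while Dcn made up 7.72% ± 0.829 and 17.0% ± 5.61 (5.08% ± 0.664 and 11.4% ± 4.17 with the longest transcript as length). The Dcn share was highest, at 23.3%, in HA-NUR77 replicate 3.

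Among the class I genes, biglycan fell while decorin, its closest relative, did not pass the test. Bgn (ENSMUSG00000031375; GRCm38 chromosome X, 73483602 to 73495933, plus strand) encodes a proteoglycan that organises collagen fibrils and, in muscle, binds the dystrophin-associated complex. It had 3570.2, 3459.6 and 2976 CPM in GFP replicates 1, 2 and 3 and 1696, 1878 and 1276 CPM in the HA-NUR77 ones. Every HA-NUR77 library was below every GFP library, and replicate 3 was the lowest of its group in both. The means were 3335 ± 316 and 1617 ± 309 CPM (SD, n = 3), which is a log2 change of −1.04 with an SE of 0.16 (edgeR adjusted p = 0.00403). The 95% interval of the fall ran from 1.6-fold to 2.65-fold.

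Dcn (ENSMUSG00000019929; chromosome 10, 97479609 to 97518143, plus strand) encodes decorin, which coats collagen fibrils and binds TGF-beta. It had 404, 312 and 369 CPM in GFP and 364, 325 and 490.1 CPM in HA-NUR77, in replicate order. The groups overlapped, and the highest library was HA-NUR77 replicate 3, in which Bgn was lowest. The means were 362 ± 46.5 and 393 ± 86.2 CPM (SD, n = 3), which is a log2 change of 0.12 with an SE of 0.16 (edgeR adjusted p = 0.616), whose 95% interval, −0.26 to 0.50, leaves out a fall as large as that of Bgn. Without HA-NUR77 replicate 3 the log2 fold change was −0.07.

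The balance of the 2 transcripts was compared within each library, where library scaling cancels. The Dcn to Bgn ratio, per length of exon, was 0.118, 0.0941 and 0.13 in GFP replicates 1, 2 and 3 and 0.225, 0.181 and 0.401 in the HA-NUR77 ones. Every HA-NUR77 ratio was above every GFP ratio, a 2.24-fold difference of geometric means (log2 difference 1.17), with an exact two-sided permutation p of 0.1, the smallest that 3 libraries against 3 allow. The ratio depends on the length used: with the longest transcript its mean was 0.062 ± 0.00988 in GFP and 0.146 ± 0.0635 in HA-NUR77 (SD, n = 3), with the same log2 difference. The log2 difference was 0.83 without HA-NUR77 replicate 3, which had the highest ratio, and 1.41 without replicate 2 of that group.

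**Figure D2:**
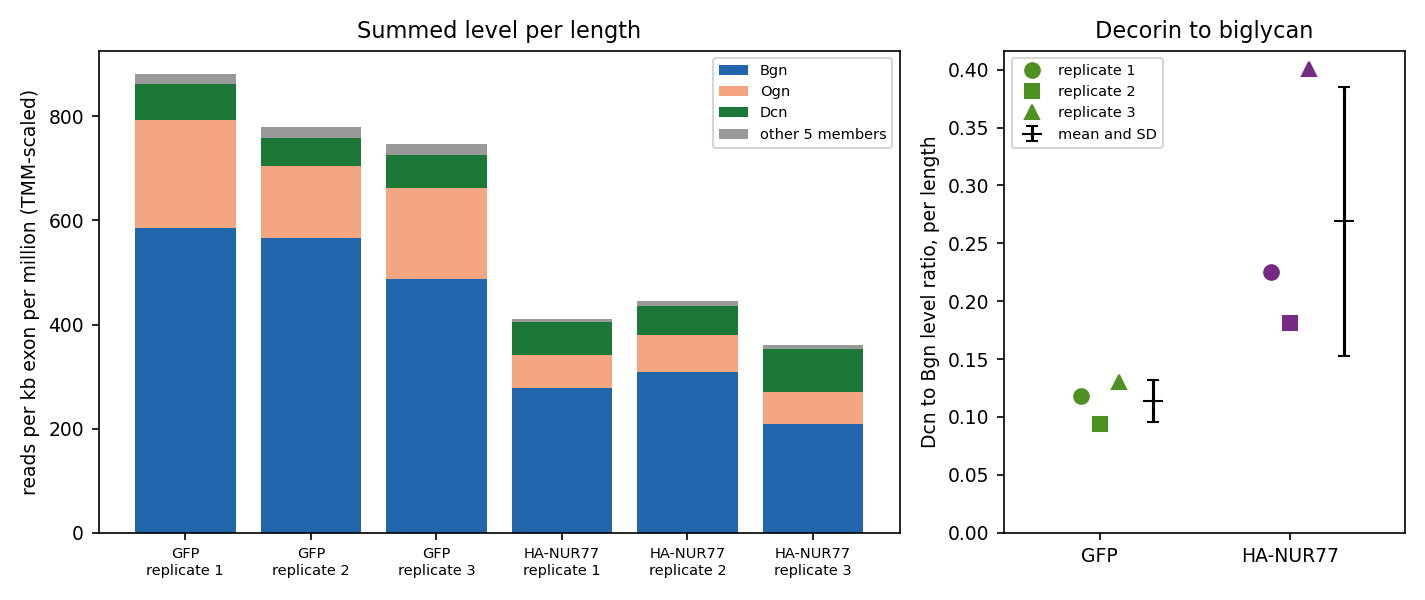
Left, summed level of the members per length (y axis, RPKM) as stacked bars for each library; right, the Dcn to Bgn level ratio per library with the mean ± SD of each group. The bars reach 746 to 882 in GFP and 360.5 to 445 in HA-NUR77, the Dcn part is 53.4 to 83.9 in every library, and the 3 HA-NUR77 ratios (0.181 to 0.401) lie above the 3 GFP ratios (0.0941 to 0.13).

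Aspn (ENSMUSG00000021388; chromosome 13, 49544443 to 49567565, plus strand), which encodes asporin, a collagen-binding protein with an aspartate-rich start, was a low transcript with wide spread. It had 9.13, 5.70 and 5.62 CPM in GFP replicates 1, 2 and 3 and 4.81, 7.12 and 3.02 CPM in HA-NUR77. HA-NUR77 replicate 2 lay above 2 of the GFP libraries. The log2 change was −0.43 with an SE of 0.32 (edgeR adjusted p = 0.351), with a 95% interval from −1.19 to 0.32, so a 2-fold fall and no change both lie within it. It was −0.16 without GFP replicate 1 and, with replicate 3 or 2 of HA-NUR77 left out, −0.19 or −0.79. An exon of Aspn overlaps one of Cenpp, a kinetochore gene on the opposite strand with 31 to 67 reads per library, and the sources used here do not give the strand setting of the counting, so the level of Aspn is uncertain.

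Of the class II members, Prelp had the largest fitted fall of the 6 members tested. PRELP binds collagen and, through a basic stretch at its start, heparan sulfate. Prelp (ENSMUSG00000041577; chromosome 1, 133910304 to 133921414, minus strand) had 42.9, 58.6 and 55.2 CPM in GFP replicates 1, 2 and 3 and 13.9, 20.0 and 12.2 CPM in the HA-NUR77 ones. The lowest GFP library was still above the highest HA-NUR77 library. The means were 52.2 ± 8.26 and 15.4 ± 4.10 CPM (SD, n = 3), which is a log2 change of −1.75 with an SE of 0.20 (edgeR adjusted p = 0.00144, 95% interval 2.45-fold to 4.62-fold). An annotated antisense gene, Gm15851, shares exon sequence with Prelp and was not among the gene IDs counted, which leaves a part of the Prelp reads uncertain.

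Fmod (ENSMUSG00000041559; chromosome 1, 134037254 to 134048277, plus strand) encodes fibromodulin, a keratan sulfate proteoglycan that acts on collagen crosslinking. It had 6.76, 8.24 and 5.01 CPM in GFP and 3.26, 4.98 and 4.74 CPM in HA-NUR77, in replicate order. The groups did not overlap, but the lowest GFP library and the highest HA-NUR77 library were almost level. The log2 fold change was −0.63 (SE 0.24), which did not pass (edgeR adjusted p = 0.087). It passed with the replicate number as a block (−0.65, edgeR adjusted p = 0.0113) and without GFP replicate 3 (−0.80, edgeR adjusted p = 0.043). Over its other alternatives the adjusted p reached 0.231.

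Lum (ENSMUSG00000036446; chromosome 10, 97565128 to 97572703, plus strand), which encodes lumican, a proteoglycan of cornea and skin, was nearly absent. It had 0, 0 and 1 reads in GFP and 1, 2 and 5 in HA-NUR77, in replicate order. This is a depth-scaled ratio of 6.63 with an exact binomial 95% interval, covering counting error only, from 0.889 to 294. Lum was below the filter, and with no filter its edgeR adjusted p was 0.259. Dcn, in the same gene cluster 47.0 kb away, had 4537 to 7443 reads per library.

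Osteoglycin, of class III, fell to a narrow range of levels in HA-NUR77. Osteoglycin, also called mimecan, takes part in collagen fibril formation and is secreted by muscle cells. Ogn (ENSMUSG00000021390; chromosome 13, 49608046 to 49624501, plus strand) had 537, 355 and 449.8 CPM in GFP replicates 1, 2 and 3 and 164, 184 and 157 CPM in HA-NUR77. The HA-NUR77 values lay close together, well below the lowest GFP library, while those of GFP spread more widely. The means were 447 ± 91.1 and 168 ± 13.9 CPM (SD, n = 3), which is a log2 change of −1.41 with an SE of 0.15 (edgeR adjusted p = 0.00118, 95% interval 2.09-fold to 3.4-fold). Podn (ENSMUSG00000028600; chromosome 4, 108014791 to 108096445, minus strand), of class V, encodes podocan and was at the floor of detection. It had 1 read in each HA-NUR77 library and 3, 1 and 3 in GFP, a depth-scaled ratio of 0.355 (exact binomial 95% interval 0.0593 to 1.56), so no difference was detectable at this depth. With no filter its edgeR adjusted p was 0.361.

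The rest of the family was read from 10 further genes, of which 5 passed the filter: 3 fell, 0 rose and 2 did not pass, with a median log2 fold change of −1.0. Tsku, which encodes tsukushi, a secreted inhibitor of several signalling proteins, had 18.9, 19.5 and 17.7 CPM in GFP and 9.05, 10.3 and 8.62 CPM in HA-NUR77 (replicates 1, 2 and 3; 2.00-fold lower, edgeR adjusted p = 0.000855). Ecm2, a related leucine-rich matrix protein, had 9.37, 7.0 and 7.38 against 3.46, 2.97 and 3.16 CPM (2.48-fold lower, edgeR adjusted p = 0.00213). Omd, which encodes osteomodulin, a bone keratan sulfate proteoglycan, had 2.37, 2.40 and 2.1 against 0.362, 1.09 and 0.359 CPM. Its log2 change was −1.83 with an SE of 0.40 (edgeR adjusted p = 0.0163), which did not pass when replicate 1 of HA-NUR77 (edgeR adjusted p = 0.0558) or of GFP (0.0624) was left out. In these 3 genes, picked as those that passed the test, and also in Chadl, the groups did not overlap. Of all genes tested, 22.5% did not overlap with HA-NUR77 below GFP and 13.2% were called lower. Podnl1, the relative of podocan, stood at 11.2 ± 0.451 CPM in GFP and 10.4 ± 2.04 in HA-NUR77 (SD, n = 3; log2 fold change −0.10, SE 0.15, edgeR adjusted p = 0.656). Chadl, a chondroadherin-like inhibitor of collagen fibril formation, was at −0.70 (SE 0.25, edgeR adjusted p = 0.074), or −0.69 with the block (edgeR adjusted p = 0.0324). An exon of Chadl overlaps one of L3mbtl2 on the opposite strand, so its level is uncertain. Kera, Epyc and Chad had no read in any library, Nyx had 2 in each group, and Optc had 27 in HA-NUR77 and 38 in GFP.

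**Figure D3:**
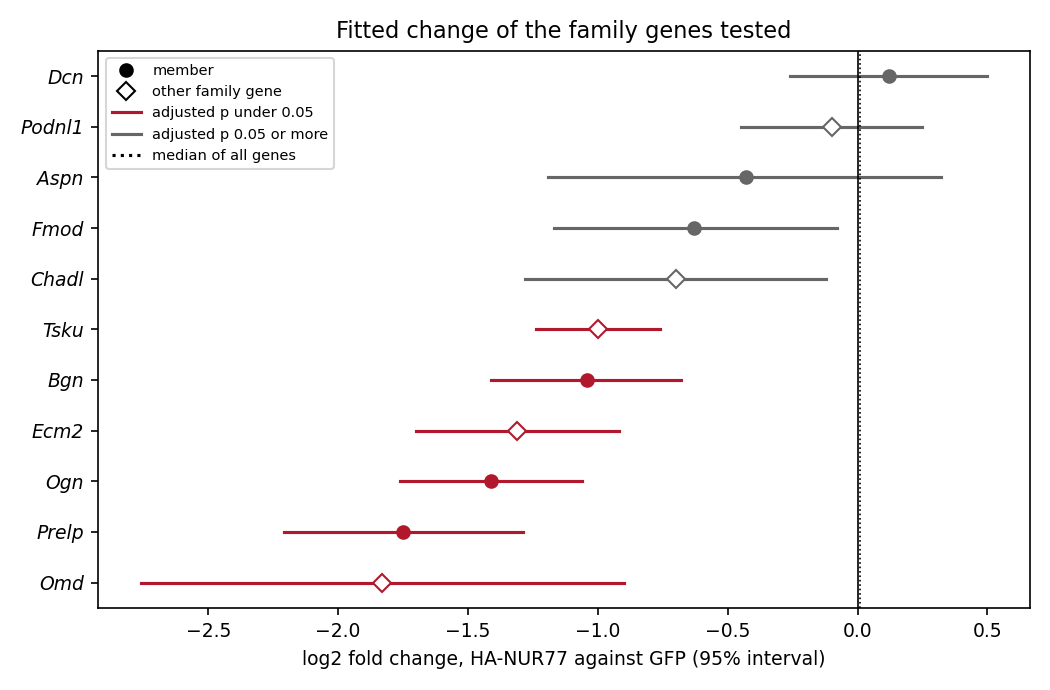
Fitted log2 fold change (x axis, HA-NUR77 against GFP) with its 95% interval for the 11 family genes tested (y axis), 6 members as filled circles and 5 other family genes as open diamonds, red where the adjusted p was under 0.05; the dotted line is the median of all genes, 0.01. Of the 11 genes, 6 are red and to the left of 0, from Tsku at −1.0 to Omd at −1.83, and Dcn is the 1 gene to the right of 0.

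Most family genes lie in 3 clusters, and not all genes of a cluster passed the test. Flanking genes are here the nearest protein-coding genes outside the family that passed the filter on low counts. They were taken at any distance, so genes that were not tested can lie between. On chromosome 13, Ecm2, Aspn, Omd and Ogn follow each other on the plus strand with gaps of 11.7, 14.9 and 15.2 kb. Ecm2, Omd and Ogn fell, while Aspn, between Ecm2 and Omd, did not pass. Cenpp, which spans the cluster on the other strand (log2 fold change 0.29, edgeR adjusted p = 0.38), and the flanking genes Ippk (−0.09, 0.538) and Nol8 (−0.52, 0.0807) did not pass either, although Nol8 was lower with the block (edgeR adjusted p = 0.000141). On chromosome 1, Prelp fell next to Optc, 2.3 kb away and below the filter, with Fmod 115.8 kb from Prelp. The flanking genes there, Atp2b4 (log2 fold change −0.25, edgeR adjusted p = 0.365) and Btg2 (0.39, 0.168), were called with the block only (0.00306 and 0.000538). On chromosome 10, Dcn was the 1 gene of its cluster with more than 5 reads in any library, since Lum had at most 5 and Kera and Epyc none. Of the genes flanking that cluster, Btg1 rose slightly (log2 fold change 0.25, edgeR adjusted p = 0.0495). Atp2b1 (0.31, edgeR adjusted p = 0.0541) did not pass but was higher with the block (0.00108). Bgn lies in no cluster, and the other listed family gene on chromosome X, Nyx, is 59994.3 kb away. The genes flanking Bgn were Haus7 (log2 fold change 0.12, edgeR adjusted p = 0.365) and Atp2b3 (1.18, 0.0843, or 0.013 with the block).

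Many genes that build the sugar chains of these proteins also fell. Of 22 genes of chondroitin and dermatan sulfate synthesis, 19 were tested: 9 fell, 0 rose and 10 did not pass. The median log2 fold change was −0.35, and with the block 14 fell. Without replicate 1 or 3 of HA-NUR77, or replicate 1 or 2 of GFP, 6 fell. Leaving out replicate 2 of HA-NUR77 gave 8 and leaving out replicate 3 of GFP gave 11. With library totals, upper-quartile factors or no filter on low counts, 8 fell. Chst15, which adds a further sulfate to chondroitin sulfate, went from 58.2, 65.4 and 56.5 CPM in GFP to 27.2, 33.7 and 20.9 in HA-NUR77 (2.19-fold lower, edgeR adjusted p = 0.00358). Ust, a uronyl sulfotransferase, fell 1.89-fold (edgeR adjusted p = 0.00611) and Dse, the epimerase that turns chondroitin into dermatan sulfate, 1.56-fold (edgeR adjusted p = 0.00569). Xylt1, which starts the chains, had no read in any library, whereas its relative Xylt2 stood at 29.0 ± 2.89 CPM in GFP and 19.4 ± 1.93 in HA-NUR77 (SD, n = 3; 1.49-fold lower, edgeR adjusted p = 0.00962). Xylt1 and Xylt2 were named after their values were seen. Of 10 genes of keratan sulfate synthesis and tyrosine sulfation, 9 were counted and 6 tested: 2 fell and 1 rose, with a median of −0.18. With the block 3 fell, the third being the tyrosine sulfotransferase Tpst1 (log2 fold change −0.28, edgeR adjusted p = 0.0275 with the block and 0.0898 without). Chst2, a GlcNAc sulfotransferase, fell 1.95-fold (edgeR adjusted p = 0.0106). The galactosyltransferases B4galt1 (log2 fold change −0.20, edgeR adjusted p = 0.0487) and B4galt4 (0.49, edgeR adjusted p = 0.0239) moved in opposite directions. The call of B4galt1 was lost in each of the 6 fits without 1 library (0.0573 to 0.163) and with library totals (0.0589), upper-quartile factors (0.0728) or no filter on low counts (0.105), and that of B4galt4 when replicate 1 of either group or replicate 3 of GFP was left out (0.0538 to 0.0867).

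Collagens that these proteoglycans bind fell as well. Of 11 genes listed, 10 were tested, and 8 fell, 0 rose and 2 did not pass, with a median log2 fold change of −0.63. Leaving out replicate 1 of either group gave 4 lower. With the block 9 fell, the addition being Col6a3 (log2 fold change −0.32, edgeR adjusted p = 0.001 with the block and 0.194 without). The largest falls were in Col1a1 (−2.39), the main fibril collagen, Col12a1 (−1.73), which sits on the fibril surface, and Col5a1 (−1.02), which starts fibril assembly, with edgeR adjusted p of 7.76e-05, 0.000701 and 0.00232. Col3a1, at 6978 ± 828 CPM in GFP and 5167 ± 516 in HA-NUR77 (SD, n = 3), fell 1.35-fold (edgeR adjusted p = 0.0449), a call that was kept in 1 of the 6 fits without 1 library, that without GFP replicate 3, and lost with library totals (0.0506) or upper-quartile factors (0.0517). Col3a1 was named after its values were seen.

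Of 18 growth factors and receptors that the proteoglycans bind, 14 were tested: 11 fell, 0 rose and 3 did not pass, with a median of −0.78. With the block 11 fell and 1 rose, the hyaluronan receptor Cd44 (log2 fold change 0.36, edgeR adjusted p = 0.00019 with the block and 0.197 without). Without replicate 1 of HA-NUR77, or replicate 1 or 2 of GFP, 9 fell, and with no filter on low counts 10 fell. Bmp4, a bone morphogenetic protein whose signalling biglycan modulates, went from 17.2, 19.2 and 20.0 CPM in GFP to 3.00, 3.01 and 3.16 in HA-NUR77 (6.15-fold lower, edgeR adjusted p = 4.51e-05). Ccn4, a secreted matricellular protein that binds decorin and biglycan, fell 3.22-fold (edgeR adjusted p = 0.000224), and Egfr, a receptor tyrosine kinase bound by decorin, 1.98-fold (edgeR adjusted p = 0.000643). All 3 TGF-beta ligands fell: Tgfb2 by a log2 of −1.49, Tgfb1 of −0.75 and Tgfb3 of −0.41, with edgeR adjusted p of 0.000656, 0.00425 and 0.00836. These ligands were named after their values were seen.

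Of 16 proteases and enhancers that process or cleave the family, 10 were tested, and 5 fell and 1 rose, with a median of −0.43. Adamts4 fell 2.40-fold (edgeR adjusted p = 0.000219), the serine protease Htra1 2.38-fold (edgeR adjusted p = 0.000326) and Adamts5 1.57-fold (edgeR adjusted p = 0.00271). Bmp1, which trims the propeptide of biglycan, fell 1.56-fold and the membrane protease Mmp14 2.04-fold, while Pcolce2, an enhancer of procollagen cleavage, rose 1.57-fold (edgeR adjusted p of 0.00287, 0.00379 and 0.00434). These last 3 were named after their values were seen. With the block 6 fell and 2 rose, the additions being Adamts1 (log2 fold change −0.23, edgeR adjusted p = 0.0488 with the block and 0.157 without) and Mmp2 (0.24, 0.0494 with the block and 0.171 without). Genes of this list that rose numbered 3 when replicate 1 of GFP was left out and 2 when replicate 1 of HA-NUR77 or replicate 2 or 3 of GFP was. With no filter on low counts, 15 genes of this list were tested, 5 fell and 2 rose, and the median was 0.23. Tll1, below the filter, had 9, 17 and 10 reads in HA-NUR77 and 2, 1 and 1 in GFP, in replicate order. Its depth-scaled ratio was 7.46 (exact binomial interval 2.67 to 28.9, covering counting error only), the opposite direction to Bmp1. Tll1 was named after its values were seen. Each of these lists is to be read against the 13.2% of all genes that were lower and the 12.4% that were higher. Counts with the block are to be read against 24.6% lower and 23.5% higher. For fits without 1 library the shares of all genes were 6.74% to 12.3% lower and 5.09% to 11.7% higher.

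**Figure D4:**
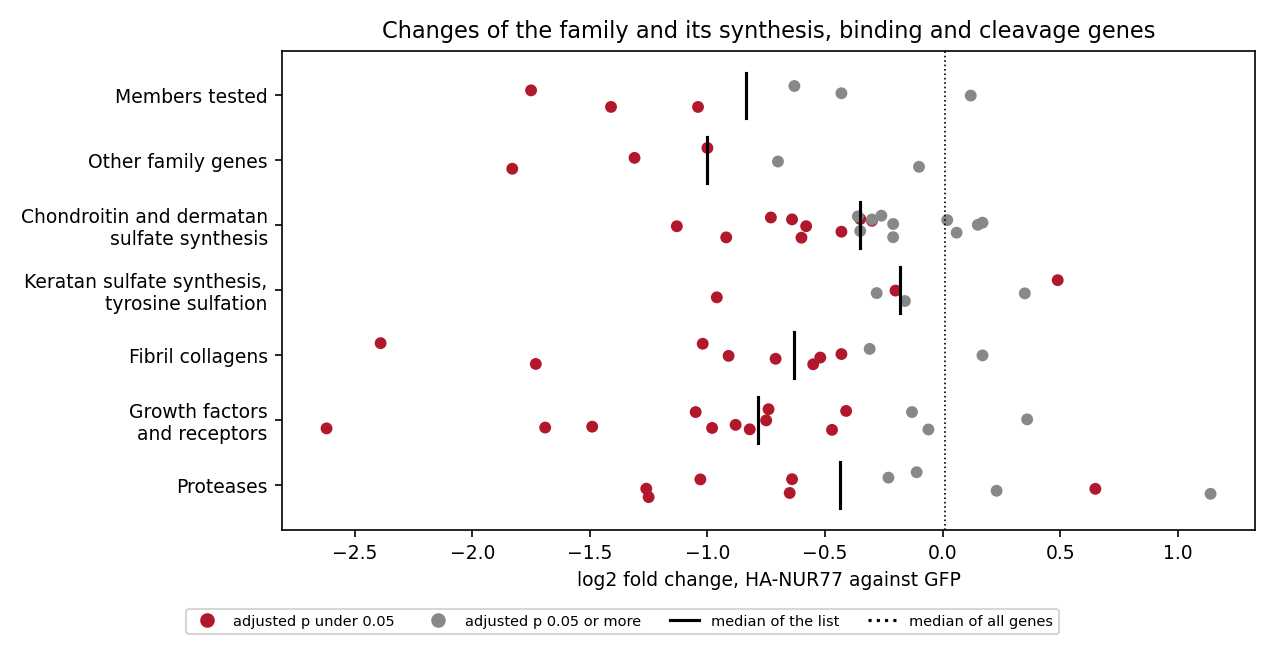
Fitted log2 fold change (x axis, HA-NUR77 against GFP) of each tested gene, 1 point per gene, in the members, the other family genes and the 5 lists of chain synthesis, binding and cleavage genes (y axis; vertical scatter has no meaning), red where the adjusted p was under 0.05. The black bars, the list medians, run from −1.0 for the other family genes to −0.18 for keratan sulfate synthesis, and all lie left of the dotted median of all genes.

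The pattern over the 6 libraries that was most like that of each member was sought among all genes tested, as Pearson's r of log2 CPM, a description in which the group difference and the shared libraries enter. The genes most like Bgn were Emilin1, an elastic fibre glycoprotein (r = 0.9993), Adamts10 (0.999) and Evl (0.9985), and 724 genes had r above 0.95 with it. Those most like Prelp were Ddah1 (0.999), Fam81a (0.9969) and Zfp521 (0.9958), and those most like Ogn were Vezf1 (0.997), Frem2 (0.9969) and Mdga1 (0.9968), with 347 and 489 genes above 0.95. Dcn had 10 genes above 0.95, led by Tarsl2 (0.9839), Nfe2l2 (0.9793) and Csrnp2 (0.978). Fmod was most like Dnal4 (0.9923), Lca5 (0.9864) and Morn1 (0.9859), and Aspn most like Necap2 (0.9918), Plpp6 (0.9888) and Slc39a11 (0.9885). With 6 libraries, many genes reach such values.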

How the data were processed

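The 6 poly(A) libraries were stranded (dUTP), with 1000 ng of RNA as input and 12 PCR cycles, per the labels' protocols. The authors deposited whole-number read counts for each Ensembl gene, with no normalisation. TopHat2 2.1, HTSeq and DESeq2, with genome build mm10, are named per the submitters' processing notes. The sources used here do not give the annotation release or the strand setting of the counting. The group comes from the sample titles; the growth text of the GFP samples also names HA-NUR77. Symbols and coordinates came from GENCODE M21 (GRCm38), which matched 22872 of 23154 IDs; promoters came from RefSeq. 2 listed genes were matched by their current symbols, Ccn2 and Ccn4.

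HA-NUR77 was tested against GFP by the robust quasi-likelihood fit of edgeR 4.0.16 (R 4.3.3), with TMM scaling and no covariate, after filterByExpr (minimum count 10); the Benjamini-Hochberg adjustment ran over 12509 genes. CPM use the summed counts of the tested genes in a library times its TMM factor. Fold changes come from the fit, their SE and 95% interval from its F statistic. Depth-scaled ratios use summed reads and the summed counts of tested genes, and intervals on counts cover counting error only. The alternatives were DESeq2 1.42.0, limma-voom (limma 3.58.1), other scaling factors and filters, the replicate number as a block, and each library left out. Same-numbered libraries deviated together from their group means (r across genes of 0.25, 0.55 and 0.47 for numbers 1, 2 and 3, all above the 0.1 required), so a fit with the number as a block is given where it changes the call of a gene named or the count of a list; the pairing comes from the data, not from a label.

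The members and the gene lists were chosen with earlier results of these data known. The genes named are the members, the other family genes, Nr4a1 and the genes that overlap or flank family genes. From each list but those of markers come the 3 genes with the smallest adjusted p among those past the threshold. Marker lists gave their most abundant genes. For each member with at least 5 CPM, the 3 genes most like it among all genes tested are also named. Genes outside these rules were named after their values were seen: Xylt1, Xylt2, Col3a1, Tgfb1, Tgfb2, Tgfb3, Bmp1, Mmp14, Pcolce2, Tll1, and those whose call the block changed. The same holds for the marker genes Cdh15, Myh3, Pdgfra, Pi16, Cd34, Thy1, Acan, Matn1, Ibsp, Adipoq and Plin1. Each library came from its own dish, so p-values measure the spread between dishes of 1 line per construct. Without the block, that spread includes the part shared by same-numbered libraries, which the block removes.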

Additional observations from a re-analysis of the deposited data

How the results depend on the processing

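Over 14 alternatives for each of the 6 members tested, 81 of 84 fold changes kept their direction and side of the threshold. Bgn, Prelp and Ogn were lower and past it in all 14. The exceptions were Dcn, whose log2 fold change turned to −0.07 without HA-NUR77 replicate 3 (up to 0.24 with another library left out), and Fmod, which passed with the replicate block and without GFP replicate 3; the cause was not tested. With the replicate block 6013 genes were called in place of 3204, and 3196 of the 3204 kept their call and direction under it; among the members the block changed no call but that of Fmod. Leaving out 1 library at a time gave 1492 to 3061 called genes, the lowest counts without GFP replicate 1 (1492) and HA-NUR77 replicate 1 (1575), and 3 or 4 members lower. Such fits hold 1 group to 2 libraries. With the longest transcript as length, the summed level was 764 RPKM in HA-NUR77 and 1522 in GFP, since Bgn is then shorter. The log2 difference of the Dcn to Bgn ratio stayed between 0.83 and 1.41 with 1 library left out, where the exact permutation p is 0.2 at the least. Depth limits Lum and Podn, with 9 and 10 reads in all.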
